A study of Homo sapiens with 18 samples.

Results

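The genes described here are 45 neuronal and synaptic genes, read from RNA-seq of A549 cells, a human lung adenocarcinoma line, kept with or without sodium propionate (SP). They were chosen by symbol: the rows of the 2 count tables whose Ensembl identifier carries 1 of 45 listed GENCODE symbols, out of 61541 genes in each table, and all 45 were found. They fall into 11 role groups: the REST repressor complex, the SNARE fusion machinery, synaptic vesicle proteins, stathmins and growth cone proteins, microtubule proteins, neuronal intermediate filaments, neuron-enriched enzymes, granins, neuronal RNA-binding proteins, synaptic organisers and scaffolds, and neural adhesion molecules. There were 18 libraries in 6 groups of 3. The first table holds untreated cells at 3 days (control) and cells in 5 mM SP for 3 or 12 days, and the second holds untreated cells at 24 h (control) and cells in 5 mM SP for 3 or 24 h. All are wild-type A549 cells of 1 line in serum-containing medium, and neither SP 3 h nor SP 12 days had an untreated group of its own time, which leaves culture time confounded with SP there, and the 2 cannot be told apart. Levels are never compared across the tables as a test.

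Outside neurons, many of these genes are kept low by REST (also called NRSF), a zinc finger repressor that binds a DNA element called RE1 and recruits CoREST corepressors, histone deacetylases and the demethylase KDM1A. RCOR2 is one of the CoREST proteins. Neurosecretion itself rests on the SNARE proteins, which fuse vesicles with the membrane, on synaptotagmins, which sense calcium, and on complexins, which clamp and promote fusion. Neuroendocrine tumour cells express several of these genes, and single members such as UCHL1 and ENO2 are also made in carcinoma cells.

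Because many of these genes are kept low by REST outside neurons, its RE1 element was searched. The search covered both strands of GRCh38 within 2000 bases of the RefSeq gene starts (build GRCh38.p14). The letters searched were TTCAGCACC, then 2 free bases, GGACAG, 1 free base and GCC, which makes 18 fixed letters, and up to 3 mismatches were allowed. Of the 30 members in the table of starts, 6 had such an element, and so did 1.73% of the 27305 genes searched. In the 300-base promoter itself, 1 member (SYN1) had one, against 0.168% of genes. The elements are shown 5′ to 3′ on the strand that matches, with the matching letters in capitals, since they let a reader set element and response side by side.
CHGA, chr14:92923523-92923543, plus strand, intron: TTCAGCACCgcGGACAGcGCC
SYN1, chrX:47620070-47620090, minus strand, upstream of the gene: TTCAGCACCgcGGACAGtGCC
INA, chr10:103279008-103279028, minus strand, intron: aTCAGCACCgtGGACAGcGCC
SYP, chrX:49200122-49200142, minus strand, intron: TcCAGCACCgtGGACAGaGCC
L1CAM, chrX:153875502-153875522, minus strand, intron: TTCAGCACCagGGACAGcGaa
TUBB3, chr16:89921257-89921277, minus strand, upstream of the gene: TTCtGCAgCtaGGACAGcGtC
A further element in L1CAM, at chrX:153875544-153875564, had 3 mismatches. A match is a description of letters and not a bound site. The responses of these 6 genes differed: INA and L1CAM were called higher at 3 and 12 days, while CHGA, SYP and TUBB3 were not called in any comparison with control and SYN1 held too few reads to test. Members missing from the table of starts were not searched. MAPT, NEFL, NEFH, NRXN2, RCOR2 and SYT7, all called higher at 3 days, are among these, so element and response cannot be compared for them.

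The members were read in 3 ways. Normalized levels are CPM, the counts scaled to a common library size after TMM normalization. Levels between genes are given as RPKM, CPM divided by the kilobases of GENCODE exon. A member was called when the Benjamini-Hochberg adjusted p of edgeR's quasi-likelihood test, over all tested genes of the table, was under 0.0001 and the fold change at least 2. The filter on low counts kept 37 of the 45 members in the 3 and 12 days table and 36 in the 3 and 24 h table. SYN1, STMN2, STMN4, GAP43, DCX, SCG3, ELAVL3 and ELAVL4 failed in both and NCAM1 in the second only. A member can pass this filter through the SP libraries alone: in 5 tested members of the first table (NEFM, NEFH, NRXN2, CAMK2B and NCAM1) and 2 of the second (NEFM and NRXN2) every control library held under 10 reads. Counts over the tested members are therefore read only beside the same counts over all tested genes. Since the cells were sequenced in bulk, more cells that express a gene and more RNA per cell cannot be told apart.

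Libraries held 14187401 to 43765330 counted reads. The labels do not say whether the 3 libraries of a group came from separate cultures. The study describes the control, 3 h and 24 h libraries of the second table as biological replicates. The p-values judge differences against the spread between these libraries. Library 3 of SP 12 days stood apart: the chi-square per degree of freedom over genes against the other 2 was 19.3 and 31.2, against 3.01 between those 2, library 3 of the 24 h control stood at 104 and 58.8 against 22.9, and library 3 of SP 3 h at 30.4 and 68.1 against 9.82. In the second table exon GC content moved with the library (−0.309 log2 CPM per 10 percentage points of GC in library 1 of the 24 h control, +0.418 in library 3), and members are GC-richer than tested genes as a whole (median 56.1% against 48.5%). The epithelial keratins KRT7, KRT8, KRT18 and KRT19 averaged 124 RPKM or more in every group, while markers of other cells were mixed. OLIG2 and CD3E had 0 reads and S100B and PTPRC at most 3 reads a group, but MBP held 3276 reads, CD14 919, COL1A1 714, CDH5 102 and GFAP 64 in the 3 days control. Summed, the immune, endothelial and fibroblast markers held 32.9 to 34.5 CPM in the 3 days controls, 92.5 to 106.5 in SP 3 days and 43.8 to 79.3 in SP 12 days, and 9.69 to 26.0, 21.1 to 42.5 and 76.9 to 106.9 CPM in the 24 h control, SP 3 h and SP 24 h. Most of the first sum was 2 genes: from the 3 days control to SP 3 days the mean of COL1A1 went from 13.3 to 61.9 CPM and that of CD14 from 17.0 to 36.0 CPM. Every other marker in it averaged 1.91 CPM (CDH5) or less in both groups, and CDH5 fell to 0.989. The glial markers held 48.7 to 64.7 CPM in the first table and 59.2 to 83.5 in the second. MBP alone averaged 61.1 CPM in the 3 days control.

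Called members were mostly higher with SP. The members were chosen with earlier results of these data known, so their counts are a description with no test. At 3 days 13 of 37 tested members were called higher and 0 lower, against 6.58% and 1.86% of all tested genes, and at 12 days 12 were higher and 1 lower, against 6.88% and 2.23%. At 24 h 5 of 36 were called higher and 0 lower, against 0.622% and 0.0633%. At 3 h none was called in either direction by edgeR, as for all tested genes (0% and 0%). DESeq2 called 5 members and 297 of all genes higher at 3 h, and 0 members and 118 genes lower. The median log2 fold change of the tested members was 0.35 at 3 h, 1.07 at 24 h, 1.08 at 3 days and 1.26 at 12 days, beside 0.0034, −0.0099, −0.024 and −0.0037 over all tested genes. These medians and counts include the members with under 10 reads in every control library, which passed the filter through the SP libraries. Of these, NEFH, NRXN2 and CAMK2B were called at 3 days, CAMK2B at 12 days and NRXN2 at 24 h.

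**Figure D1:**
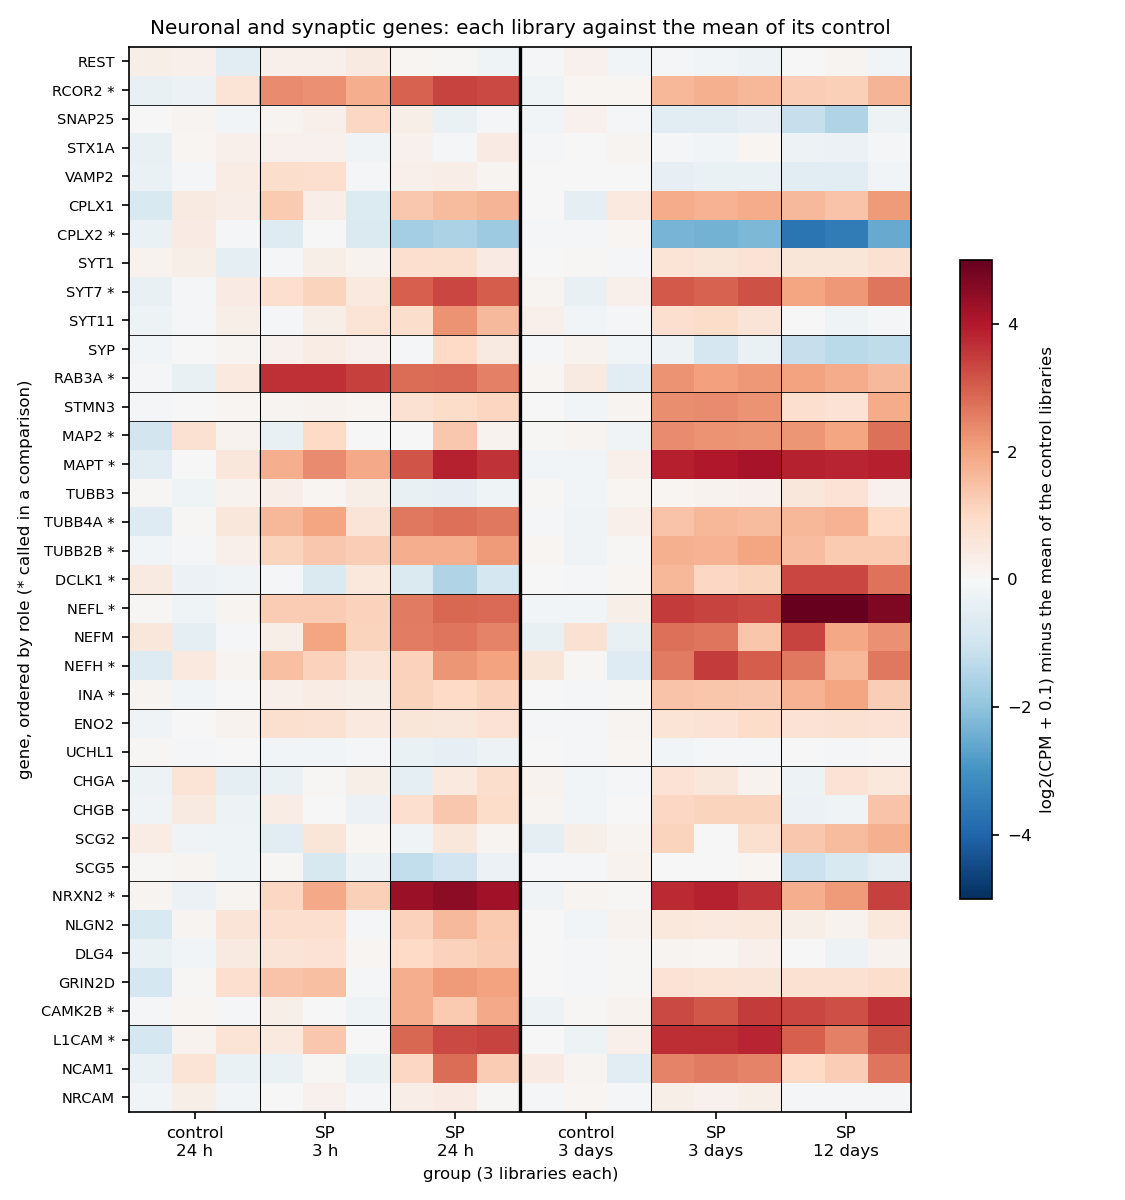
Each cell shows log2(CPM + 0.1) of a gene in one library minus the mean of the control libraries of its own table, for the members tested in at least one table; the thick line separates the tables and an asterisk marks the 15 members called in at least one comparison with control. RCOR2, SYT7, RAB3A, MAPT, NEFL, NRXN2 and L1CAM are red in the SP 24 h, 3 days and 12 days libraries, and CPLX2 is blue.

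With looser limits (adjusted p under 0.05, fold change of at least 2), 7 members were higher and 0 lower at 3 h, where 3.65% and 0.967% of all tested genes were, and 19 were higher and 2 lower at 24 h, where 10.2% and 1.84% were. All 3 SP libraries lay above all 3 controls for 12 tested members at 3 h, 22 at 24 h, 28 at 3 days and 24 at 12 days. In the same order it held for 15.6%, 24.6%, 30.5% and 28.7% of all tested genes. They lay below for 1, 4, 4 and 6 members and for 11.7%, 19.8%, 30.7% and 27.3% of all tested genes. The same libraries are used as controls for both SP times of a table, so calls at both times are not independent. Of the 13 members higher at 3 days, 11 were also higher at 12 days.

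No label pairs the libraries, and the main calls come from a fit with no pairing. Replicate number was a block in alternative fits only. Same-numbered libraries of the 24 h control and SP 24 h correlated in their deviations from group means. For number 2 this was 0.170, beside 0.175 for control library 3 with SP 24 h library 2. The block spanned all 9 libraries of the table, and library 3 of the control and library 3 of SP 3 h correlated at −0.59. Whether the pairing is real was therefore not settled. With replicate number as a block, 0 members were called higher at 24 h and 0 lower, and of all 17377 tested genes 2 were higher and 0 lower. With the block and an offset for GC content and length 6 members were higher and 1, CPLX2, was lower, and 234 and 137 of all tested genes were. Leaving out 1 library also moved the 5 higher calls at 24 h: 0 were left without control library 1 or 2, SP 3 h library 1 or SP 24 h library 2 or 3, 1 without SP 24 h library 1, and 3 without SP 3 h library 2 or 3. After the offset alone 7 were higher and 1 lower at 24 h, and it turned the split of all tested genes from 108 higher and 11 lower to 297 and 152. At 3 days it moved that split from 1169 and 331 to 878 and 570, and at 12 days from 1223 and 397 to 970 and 572. The members then stood at 12 higher and 1 lower at 3 days and 10 higher and 2 lower at 12 days. The offset shifted the median log2 fold change of all tested genes at 24 h from −0.01 to −0.13.

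Most members started low. In the 3 days control, 25 of the 45 had a mean under 1 RPKM and 10 were above 10 RPKM (STX1A, VAMP2, CPLX2, SYT1, INA, ENO2, UCHL1, NLGN2, GRIN2D and NRCAM). The most abundant were UCHL1 at 256 RPKM and CPLX2 at 223 RPKM, in places 86 and 99 of 17745 ranked genes. Sorted into 3 equal bins by control level, 16 tested members lay in the lowest bin of all genes, 11 in the middle and 10 in the highest. At 3 days 8, 5 and 0 of these were called higher. Over all tested genes the bins held 693, 372 and 104 higher genes of 5925 each. The bins rest on the same control libraries as the fold changes, and genes with few control reads could pass the filter through the SP libraries, so the bins are a description with no test. At 12 days 7, 5 and 0 members were higher, against 725, 391 and 107 genes, and the single lower call, CPLX2, was in the highest bin.

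**Figure D2:**
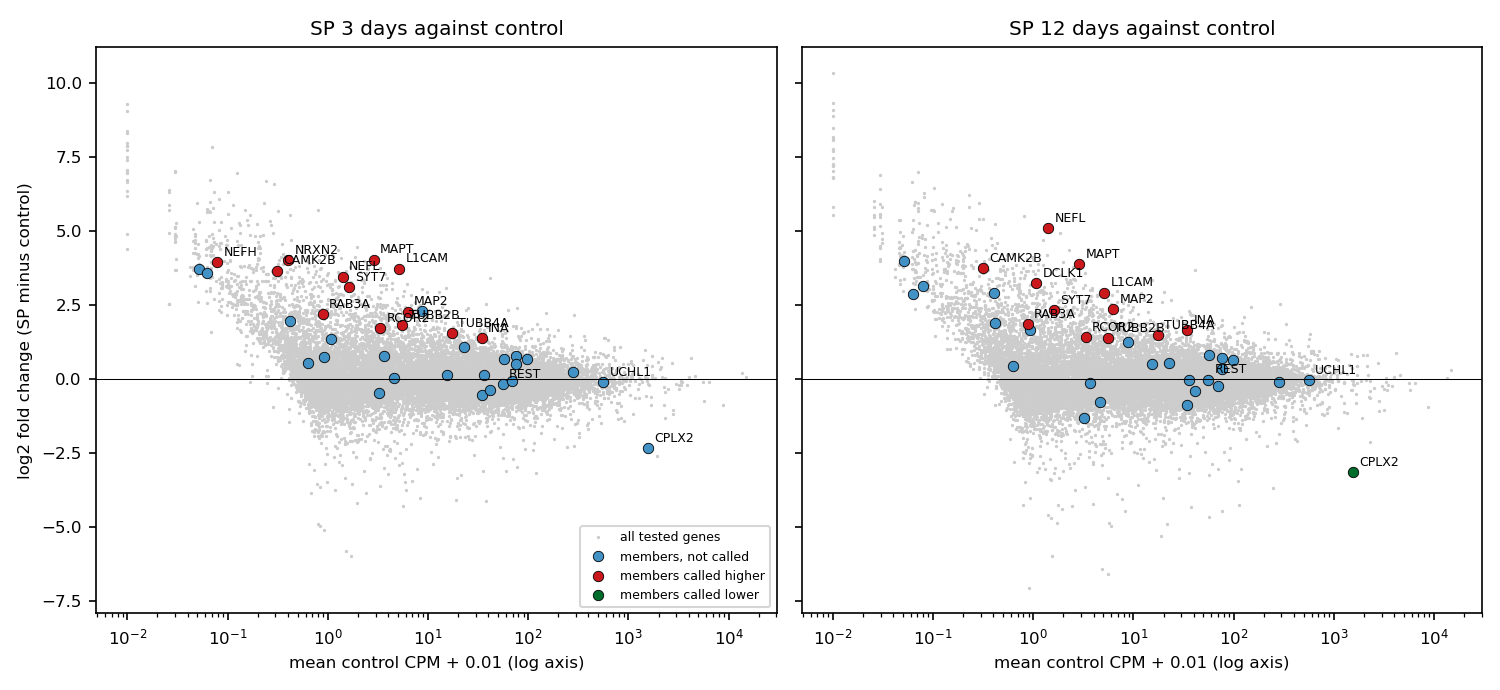
The log2 fold change (SP minus control) is plotted against the mean CPM of the 3 days control plus 0.01 (log axis) for 17775 tested genes in grey and the members in colour, at 3 days on the left and 12 days on the right. Red members, called higher, sit between control levels of 0.0687 CPM (NEFH) and 34.4 CPM (INA), while CPLX2 lies at 1565 CPM, beneath nearly all grey points of its level, and is green where it was called lower.

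CPLX2 (complexin 2, ENSG00000145920, chromosome 5, 175796310 to 175884021), a complexin that regulates the last step of vesicle fusion, was the one member called lower. Its control libraries at 3 days held 1509, 1510 and 1677 CPM. SP 3 days libraries held 310, 305 and 330 CPM and SP 12 days libraries 123, 140 and 272 CPM. Every SP library was therefore far below every control, and library 3 of SP 12 days stood closer to the 3 days libraries than to its own group. The log2 fold change was −2.31 (SE 0.27, edgeR adjusted p = 1.70e-04) at 3 days, which missed the limit, and −3.13 (SE 0.28, adjusted p = 3.02e-05) at 12 days.

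The 3 days value was called by DESeq2 and, in edgeR, with the block, with the offset, in a fit of the 2 groups alone, and once library 1 or library 3 of SP 12 days was left out of the shared fit (adjusted p = 1.56e-05 and 7.80e-18). The call at 12 days was lost when any 1 of the 3 controls or library 2 of SP 12 days was left out (adjusted p between 1.30e-04 and 2.39e-04, log2 fold change −3.16 to −3.00), and without the expression filter (4.91e-04) or in a fit of the 2 groups alone (2.92e-04). Without library 3 of SP 12 days it was −3.60 (4.65e-19). In the shorter experiment the control held 763, 1283 and 892 CPM, SP 3 h 605, 968 and 579, and SP 24 h 292, 322 and 273. SP 3 h overlapped the control (log2 fold change −0.45, SE 0.23, adjusted p = 0.278). SP 24 h lay below it throughout (−1.73, SE 0.24, adjusted p = 9.79e-04) but missed the limit, which it passed with the offset (−2.28, adjusted p = 1.16e-05) and in DESeq2, and it lay below SP 3 h as well (−1.28, SE 0.24, adjusted p = 0.00647).

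CPLX1 (complexin 1), the sister gene that neurons use alongside CPLX2, stood at the other end of the scale. It held 8, 4 and 10 reads in the 3 days controls, 27, 25 and 28 in SP 3 days and 22, 24 and 46 in SP 12 days. SP libraries did not overlap the controls, and the log2 fold changes of 1.96 (SE 0.35, adjusted p = 2.60e-04) and 1.91 (SE 0.35, adjusted p = 2.85e-04) missed the limit. At 24 h it was at 36, 79 and 57 reads against 5, 14 and 19 in the control (1.597, SE 0.47, adjusted p = 0.0322). In the controls CPLX2 had 950 to 2016 times the RPKM of CPLX1, 63.1 to 67.04 times after 3 days of SP and 29.5 to 44.6 times after 12.

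Per length, CPLX2 made 34.05 to 35.16% of the summed RPKM of all members in the 3 days controls, 7.82 to 8.34% in SP 3 days and 3.36 to 7.05% in SP 12 days. The other 14 called members together held 75.2 to 86.9 CPM in the controls, 362 to 373 CPM in SP 3 days and 342 to 391 CPM in SP 12 days. The CPM of CPLX2 alone fell by more than the sum of these 14 rose in all 6 SP libraries of that table. The 14 were picked because they were called higher, so the rise of their sum follows from that choice. All members without CPLX2 summed to 1506 to 1577 CPM in the controls, 2038 to 2092 CPM in SP 3 days and 1918 to 2020 CPM in SP 12 days.

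**Figure D3:**
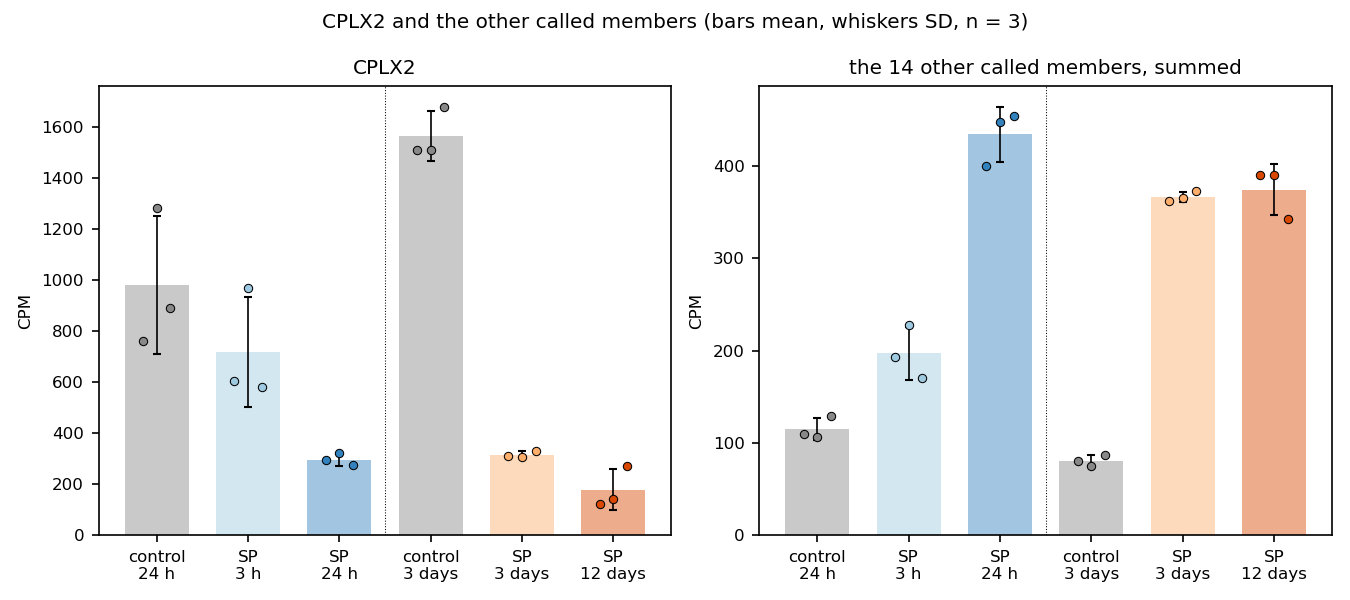
Each point is the CPM in one library, bars are means and whiskers SD over 3 libraries, for CPLX2 (left) and for the sum of the 14 other called members (right); both axes start at 0 and differ in scale. CPLX2 drops from 1509 to 1677 CPM in the 3 days controls to 123 to 330 CPM with SP. In the same groups the summed others go from at most 86.9 CPM to at least 342 CPM, a rise that follows from choosing members called higher.

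In the repressor complex, REST itself was not called in any comparison. Its libraries held 52.0, 64.3 and 51.1 CPM in the 3 days control, 52.6, 50.4 and 46.4 in SP 3 days and 56.0, 60.4 and 50.2 in SP 12 days, so the groups overlapped. The log2 fold changes were 0.27 at 3 h, −0.07 at 24 h, −0.16 at 3 days and −0.01 at 12 days (SE 0.21, 0.21, 0.10 and 0.10, adjusted p = 0.208 or more). RCOR2 (CoREST2, chromosome 11, 63911230 to 63917164) rose at 3 and 12 days. It held 2.87, 3.57 and 3.60 CPM in the 3 days control, 10.8, 11.5 and 10.7 in SP 3 days and 7.90, 7.68 and 11.0 in SP 12 days. No library overlapped, with log2 fold changes of 1.73 (SE 0.17, adjusted p = 5.59e-07) and 1.42 (SE 0.17, adjusted p = 4.30e-06).

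In the shorter experiment RCOR2 was at 0.900, 0.951 and 1.96 CPM in the control, 6.56, 6.29 and 4.44 at 3 h and 9.95, 13.3 and 12.7 at 24 h. Both SP groups lay above the control, with log2 fold changes of 2.12 (SE 0.30, edgeR adjusted p = 0.00289) and 3.19 (SE 0.30, adjusted p = 1.34e-04), both short of the limit. The call at 12 days was lost with the block and offset together (log2 fold change 1.02, adjusted p = 1.57e-04) and in the fit of the 2 groups alone (1.07e-04). Of 22 other genes that act with REST, from corepressor subunits to its splicing regulators, 21 were tested and 1 was called higher at 3 and 12 days, with 0 lower. It was SRRM3, a neuronal microexon splicing factor, at log2 fold changes of 2.19 (SE 0.11) and 1.89 (SE 0.11).

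Of the 8 members of the SNARE fusion machinery, SYT7 was the only one called higher. SYT7 (synaptotagmin 7) is a slow calcium sensor of vesicle and lysosome fusion that many tissues use. Its 3 days controls held 1.77, 1.19 and 1.89 CPM, SP 3 days 14.2, 12.8 and 15.4, and SP 12 days 6.58, 7.38 and 10.7. All SP libraries exceeded all controls, with log2 fold changes of 3.11 (SE 0.21, adjusted p = 1.09e-08) and 2.34 (SE 0.22, adjusted p = 2.97e-07). At 24 h it had already reached 15.5, 19.6 and 16.2 CPM against 1.43, 1.80 and 2.56 in the control (3.13, SE 0.24, adjusted p = 5.77e-05; with the block 5.48e-04).

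SYT1, the fast calcium sensor of synapses, was well expressed before SP and its changes stayed under 2-fold (log2 0.68 at 3 days and 0.65 at 12 days, SE 0.08, adjusted p = 4.03e-06 and 5.63e-06). SYT11, a synaptotagmin that does not bind calcium, showed 1.73 (SE 0.36, adjusted p = 0.00687) at 24 h, 0.81 (SE 0.17, adjusted p = 8.53e-04) at 3 days and −0.13 (SE 0.17, adjusted p = 0.579) at 12 days. None was called by edgeR, and DESeq2 called the 24 h value. The core SNAREs SNAP25, STX1A and VAMP2 lay between −0.87 and 0.56 in the 4 comparisons. SNAP25 held 30.9, 39.6 and 32.3 CPM in the control and 15.5, 11.8 and 28.4 CPM in SP 12 days (−0.87, SE 0.28, adjusted p = 0.0305, not called), where library 3 lay nearer to the controls. Without that library SNAP25 and SYP were called lower beside CPLX2.

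Among the synaptic vesicle proteins the vesicle GTPase RAB3A was highest at 3 h. Its 24 h controls held 0.529, 0.423 and 0.842 CPM, SP 3 h 8.46, 8.46 and 7.13, and SP 24 h 4.53, 4.75 and 3.75. At 3 h its log2 fold change of 3.68 (SE 0.24, adjusted p = 1.04e-04) was the largest of the 36 tested members, and it missed the limit by a narrow margin. At 24 h it was 2.80 (SE 0.24, adjusted p = 9.66e-05), and every SP 24 h library was below every SP 3 h library (−0.88, SE 0.20, adjusted p = 0.0140). At 3 days RAB3A held 4.33, 3.78 and 4.13 CPM and at 12 days 3.67, 3.29 and 2.79, against 0.908, 1.19 and 0.532 in the control. Both were called, at 2.21 (SE 0.25, adjusted p = 2.79e-06) and 1.88 (SE 0.25, adjusted p = 1.65e-05). The call at 24 h was lost with the block (9.92e-04) and without any 1 library of its table, and that at 12 days with the offset (1.19e-04), in the fit of the 2 groups alone (2.94e-04) and without control library 1 or 3 or SP 12 days library 1 (adjusted p up to 1.94e-04).

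SYP (synaptophysin), the classic vesicle marker used for neuroendocrine tumours, stayed at 1.198 to 8.35 CPM. It went from 3.11, 3.63 and 2.96 CPM in the 3 days control to 1.39, 1.198 and 1.28 in SP 12 days (log2 fold change −1.32, SE 0.22, adjusted p = 1.37e-04), just outside the limit in edgeR and called lower by DESeq2 (4.69e-05). SYN1 (synapsin 1), which tethers vesicles and carries the perfect RE1 match above, held at most 5 reads in any control library and 5, 32 and 7 reads in SP 24 h. Over the group, 44 reads against 5 make a ratio of 5.90 after scaling for depth (95% counting interval 2.34 to 19.1). The intervals cover counting error only, and 32 of the 44 reads came from 1 library.

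**Figure D4:**
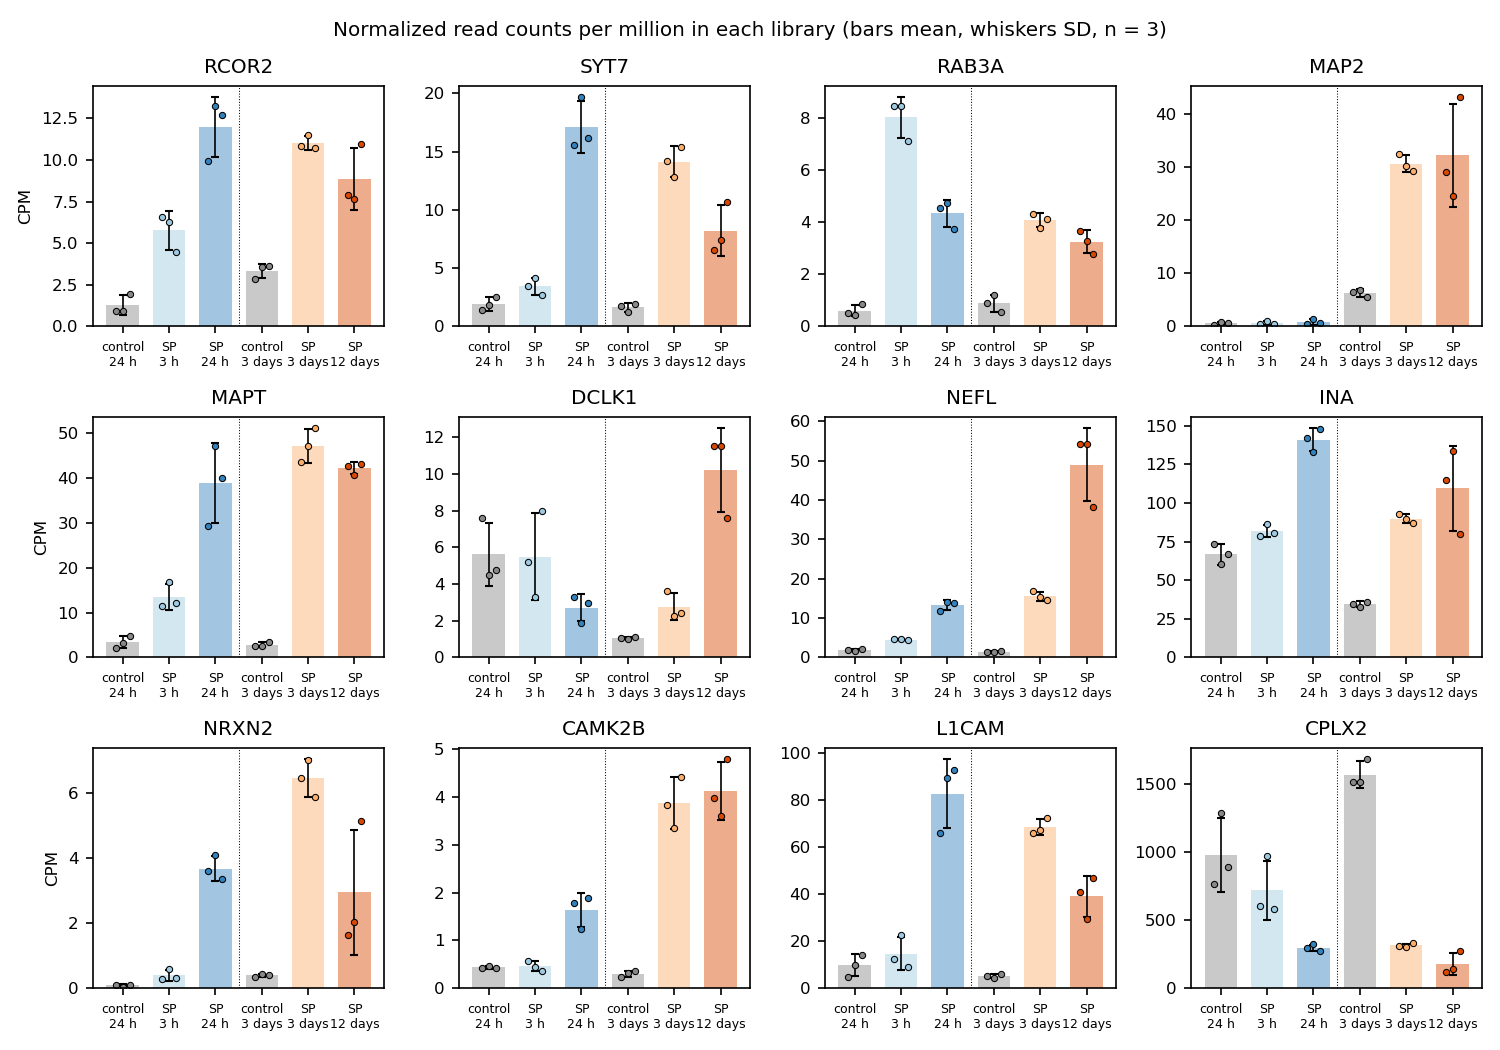
Points are CPM of each library, bars the mean and whiskers the SD of 3 libraries, for 12 members; the dotted line separates the tables and axes start at 0. Most panels step up from the grey controls to the coloured SP groups by 24 h or 3 days, RAB3A is highest at 3 h, MAP2 is near 0 throughout the shorter experiment, DCLK1 and NEFL are highest at 12 days of SP, DCLK1 is lower than its control at 24 h, and CPLX2 is lower in SP 24 h, 3 days and 12 days.

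Of the tubulin and microtubule-associated members, 4 of 6 tested were called higher at 3 days and 5 at 12 days. Over all tested genes 6.58% and 6.88% were called higher. MAPT encodes tau, which stabilises axonal microtubules. Its 3 days controls held 2.58, 2.57 and 3.43 CPM, SP 3 days 43.5, 47.2 and 51.1, and SP 12 days 42.6, 40.8 and 43.2. SP libraries were an order of magnitude above every control, at log2 fold changes of 4.05 (SE 0.12, adjusted p = 2.29e-12) and 3.88 (SE 0.12, adjusted p = 5.63e-12). In the shorter experiment tau was at 2.12, 3.22 and 4.80 CPM in the control, 11.4, 16.9 and 12.2 at 3 h and 29.3, 47.2 and 40.1 at 24 h, so it was above the control at every time, though at 3.50 (SE 0.31, adjusted p = 1.13e-04) the 24 h value missed the limit.

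MAP2, the dendritic counterpart of tau, behaved otherwise in the shorter experiment. It stayed at 0.486, 1.41 and 0.574 CPM at 24 h against 0.212, 0.898 and 0.561 (0.62, SE 0.58, adjusted p = 0.440). At 3 days it went from 6.50, 6.83 and 5.50 to 32.5, 30.4 and 29.2 CPM and at 12 days to 29.2, 24.6 and 43.2. No library overlapped, and the log2 fold changes were 2.29 (SE 0.19, adjusted p = 5.21e-07) and 2.37 (SE 0.19, adjusted p = 3.27e-07). The controls of the 2 tables, which were normalized apart, also differ for MAP2. The difference between the 24 h and the 3 days response was not tested.

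TUBB4A, a β-tubulin of brain, went from 16.5, 15.3 and 20.6 CPM to 47.2, 54.5 and 52.6 at 3 days and 54.9, 58.4 and 34.5 at 12 days. It was called at both times (1.56, SE 0.19, adjusted p = 3.71e-05 and 1.49, SE 0.19, adjusted p = 4.83e-05), but lost these calls with the offset (0.00113 and 7.41e-04) and in 6 and 5 of the 9 fits that left out 1 library (adjusted p up to 4.77e-04 and 5.79e-04). TUBB2B, another neuronal β-tubulin, was called at 24 h, 3 days and 12 days, with log2 fold changes of 1.92, 1.83 and 1.39 (SE 0.15, 0.13 and 0.13). Its 24 h call was lost with the block (3.56e-04) and in 8 of 9 fits that left out 1 library (adjusted p up to 8.68e-04). Reads of tubulin genes with near-identical copies and pseudogenes may have been shared or dropped by the counting. TUBB3, the tubulin most used to stain neurons, was not called in any of the 4 comparisons, at −0.34 to 0.50, and 1584 of its 7421 exon bases are shared with another annotated gene.

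DCLK1, a kinase related to doublecortin that binds microtubules, was called higher at 12 days. Its 24 h controls held 7.57, 4.49 and 4.77 CPM and SP 24 h 3.28, 1.88 and 2.94 CPM, all below (−1.07, SE 0.36, adjusted p = 0.0498), which was not called. Its 3 days controls held 1.05, 1.00 and 1.12 CPM, SP 3 days 3.60, 2.25 and 2.39, and SP 12 days 11.5, 11.5 and 7.58. Here all SP libraries were above the controls, at 1.37 (SE 0.27, adjusted p = 6.29e-04) and 3.25 (SE 0.24, adjusted p = 2.23e-08). DCX, doublecortin itself, had 1 read in the 3 days control, 1 in SP 3 days and 0 in every other group, which allows up to 3 reads in each of those.

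Neurofilament light chain, NEFL (chromosome 8), had the largest fold change of the 37 tested members at 12 days. Its libraries held 1.24, 1.25 and 1.71 CPM in the 3 days control, 16.8, 15.4 and 14.5 in SP 3 days and 54.4, 54.2 and 38.2 in SP 12 days. The 3 groups did not overlap and rose in that order, at 3.47 (SE 0.19, adjusted p = 1.20e-09) and 5.12 (SE 0.18, adjusted p = 1.48e-11) against the control. In the shorter experiment NEFL went from 1.96, 1.58 and 2.07 CPM to 4.66, 4.64 and 4.28 at 3 h and 11.8, 14.1 and 13.9 at 24 h. The 24 h value was called (2.82, SE 0.16, adjusted p = 1.80e-05; with the block 2.73e-04) and the 3 h value was not (1.26, SE 0.16, adjusted p = 0.00172). The exons of NEFL overlap an annotated gene of the opposite strand, and strandedness is not stated, so reads of the 2 cannot be told apart.

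The neurofilament partners NEFM and NEFH were close to silent. NEFH held 3, 1 and 0 reads in the 3 days controls, 14, 28 and 20 in SP 3 days and 14, 8 and 20 in SP 12 days. It was called at 3 days (3.96, SE 0.61, adjusted p = 6.91e-05), not at 12 days (3.17, SE 0.67, adjusted p = 9.67e-04), and the 3 days call was lost in 7 of 9 fits that left out 1 library (adjusted p up to 8.58e-04). NEFM held 0, 2 and 0 reads in the controls and 13, 12 and 4 and 20, 8 and 12 in SP 3 and 12 days, with no call. INA (α-internexin), the filament that is first used in developing neurons, was already abundant and changed by a smaller fold. It held 34.8, 32.4 and 35.9 CPM in the control, 92.7, 89.9 and 87.0 in SP 3 days and 115, 134 and 79.7 in SP 12 days. All SP libraries were above the controls, at 1.39 (SE 0.15, adjusted p = 7.52e-06) and 1.67 (SE 0.15, adjusted p = 1.32e-06). At 3 days the call was lost without control library 2 or 3 (2.05e-04 and 2.40e-04).

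**Figure D5:**
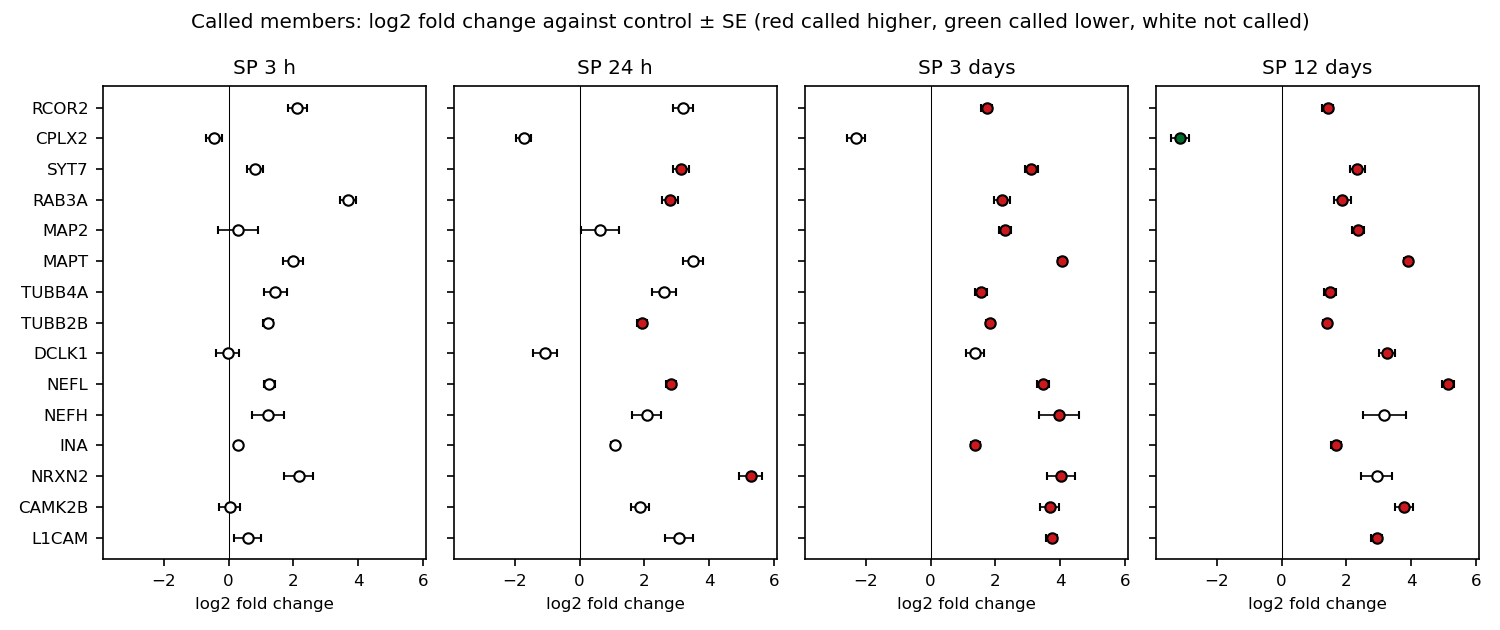
Log2 fold changes against control with their SE (x axis) for the 15 called members (y axis) in the 4 comparisons; red points were called higher, green called lower, and white not called. At 3 h all points are white, at 24 h the 5 red points are SYT7, RAB3A, TUBB2B, NEFL and NRXN2, and at 12 days CPLX2 is the single green point at −3.13.

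Of the synaptic organisers, receptors and scaffolds, NRXN2 and CAMK2B were called. NRXN2 (neurexin 2), a presynaptic adhesion molecule, was nearly absent from the 24 h controls, with 2, 1 and 3 reads. SP 3 h held 4, 18 and 8 reads and SP 24 h 89, 182 and 99 reads. Its 24 h log2 fold change of 5.28 (SE 0.35, adjusted p = 3.00e-05; with the block 3.23e-04) was the largest of the list in any comparison. At 3 days it went from 0.335, 0.439 and 0.414 to 6.46, 7.01 and 5.86 CPM (4.02, SE 0.44, adjusted p = 7.64e-06). At 12 days it held 1.64, 2.05 and 5.14 CPM, with library 3 nearer to SP 3 days, and was not called (2.93, SE 0.47, adjusted p = 1.96e-04). The 3 days call was lost when any 1 control was left out (1.94e-04 to 2.31e-04).

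CAMK2B, the β subunit of the kinase that synapses use to read calcium, held 5, 5 and 6 reads in the 3 days controls, 63, 55 and 74 in SP 3 days and 63, 72 and 108 in SP 12 days. Its log2 fold changes were 3.67 (SE 0.28, adjusted p = 4.12e-08) and 3.76 (SE 0.28, adjusted p = 2.26e-08), and its exons overlap YKT6 on the opposite strand over 2325 bases, so part of its reads may be of that gene. NLGN2, the neuroligin of inhibitory synapses, and DLG4, the scaffold PSD-95, lay at 0.34 to 0.51 and −0.02 to 0.15 at 3 and 12 days. At 24 h they stood at 1.26 (SE 0.36, adjusted p = 0.0300) and 1.09 (SE 0.23, adjusted p = 0.00770), with every SP library above the controls and no call. GRIN2D, an NMDA receptor subunit, changed by less than 2-fold at 3 and 12 days (0.70 and 0.81, SE 0.08) and stood at 1.84 (SE 0.48, adjusted p = 0.0208) at 24 h, with every SP library above the controls and no call. It spread from 15.1 to 49.5 CPM among the 24 h controls, in the order of the GC trend of those libraries, and 69.0% of its exon bases are G or C.

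L1CAM, an adhesion molecule of growing axons that is also found at the front of invasive tumours, rose at both late times. It held 5.12, 4.198 and 6.09 CPM in the control, 66.2, 67.5 and 72.4 in SP 3 days and 41.0, 29.6 and 46.9 in SP 12 days. No library overlapped, at 3.74 (SE 0.17, adjusted p = 7.90e-10) and 2.93 (SE 0.17, adjusted p = 6.43e-09). At 24 h it went from 4.87, 10.1 and 14.4 to 66.2, 89.5 and 92.9 CPM, a change (3.07, SE 0.44, adjusted p = 0.00121) that missed the limit. NCAM1 (CD56), a marker of neuroendocrine tumours, held 2, 1 and 0 reads in the 3 days control and 12, 13 and 12 in SP 3 days (3.59, SE 0.75, adjusted p = 9.19e-04), with no call. NRCAM, an abundant L1 relative, lay between −0.08 and 0.26 on the log2 scale against the controls.

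The other role groups had no call. STMN3, a stathmin that destabilises microtubules, was the only one of the 4 stathmin and growth cone members with reads to test. It held 8.80, 7.89 and 9.57 CPM in the 3 days control, 43.8, 45.03 and 42.2 in SP 3 days and 15.7, 14.6 and 31.9 in SP 12 days. The groups did not overlap, yet the 3 days change of 2.32 (SE 0.28, adjusted p = 1.64e-04) missed the limit in edgeR and was called by DESeq2. Without library 3 of SP 12 days edgeR called it as well. STMN2 had 0 reads in all 18 libraries. STMN4 held at most 2 reads in a library, and GAP43 0 reads in both controls and 7 in SP 12 days. The enzymes UCHL1, a deubiquitinase, and ENO2, the neuronal enolase, were high in all libraries. UCHL1 stayed between 405 and 597 CPM, with log2 fold changes of −0.34 to −0.03, and ENO2 changed by 0.63 to 0.79.

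Among the granins, the proteins that pack secretory granules, CHGB held 24.8, 20.8 and 23.1 CPM in the 3 days control and 46.6, 49.6 and 49.0 in SP 3 days. In SP 12 days it held 18.8, 20.0 and 61.5 CPM, where libraries 1 and 2 lay below the control and library 3 above SP 3 days. SCG2 went from 0.622, 1.13 and 1.00 CPM to 2.40, 2.89 and 3.32 at 12 days (1.68, SE 0.30, adjusted p = 2.56e-04), and CHGA, which carries a perfect RE1 match, held 0.506 to 1.10 CPM in SP 3 and 12 days against 0.564 to 0.717. SCG5, which shares 1140 of its 2196 exon bases with other annotated genes, lay at −0.89 to 0.03, and SCG3 held at most 2 reads in a library. Of the neuronal RNA-binding proteins, ELAVL3 held 3 reads in the 24 h controls and 36 in SP 24 h, a ratio of 8.04 (95% counting interval 2.54 to 40.8), but 7 and 8 reads in the 3 days control and SP 3 days. ELAVL4 held 1 read in each SP group of the first table and 0 elsewhere.

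Between the times of SP, direct tests found few differences. SP 24 h and SP 3 h differed by the call limits in 0 members in edgeR, against 0.0288% of all tested genes higher and 0% lower. DESeq2 called 6 members higher and 1 lower there, and 555 and 101 of all genes. SP 12 days and SP 3 days differed in 2 members, both higher at 12 days, against 0.152% of all tested genes higher and 0.0281% lower. They were NEFL (1.65, SE 0.13, adjusted p = 4.79e-06) and DCLK1 (1.88, SE 0.21, adjusted p = 7.56e-05). Without library 3 of SP 12 days 7 members differed instead, the same 2 higher and CPLX2, SYT7, NRXN2, CHGB and STMN3 lower at 12 days. The DCLK1 call was lost in the other 8 fits that left out 1 library (adjusted p up to 0.00231) and the NEFL call without any 1 SP 3 days library (up to 4.00e-04).

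Of 88 other synaptic and neuronal genes outside the list, 59 were tested in the first table, and 24 were called higher at 3 days and 25 at 12 days, with 0 lower, beside the 6.58% and 6.88% of all tested genes called higher (median log2 fold change 1.07 and 1.09). At 24 h 3 of 54 were called higher, beside 0.622% of all tested genes, and at 3 h 0. The list was chosen with earlier results of these data known, so its counts are a description with no test. The largest rises at 3 days were those of KIF1A, the motor of synaptic vesicle precursors (5.73, SE 0.17), GAD1, which makes GABA (5.31, SE 0.41), SNCB, β-synuclein (4.88, SE 0.43), and ERC2, an active zone protein (4.37, SE 0.64). Over the 3 days controls they held 43, 4, 9 and 3 reads, so GAD1, SNCB and ERC2 passed the filter through the SP libraries. At 12 days they were SYN3, a synapsin (5.93, SE 0.70, 1 read in the controls and 92 with SP), KIF1A (5.53, SE 0.17), GAD1 (5.22, SE 0.41) and VGF, a secreted neuropeptide precursor (4.70, SE 0.23).

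Relatives of the members taken as more broadly expressed, SNAREs and tubulins among them, were listed for comparison. How broadly each is expressed was not measured here. Of 35, 1 was called higher at 3 days (TUBA1A, 1.63, SE 0.15) and 3 at 12 days (TUBA1A 1.77, VAMP8 1.41 and RAB3B 1.17, SE 0.15, 0.11 and 0.09), with 0 lower, beside 6.58% and 6.88% of all tested genes called higher. Of 20 transcription factors of neurons and neuroendocrine cells, 6 were tested, and MYT1 (3.20 and 2.92), POU4F1 (1.63 and 1.51) and HES6 (1.01 and 1.09) were called higher at 3 and 12 days. The neuroendocrine regulators NEUROD1 and INSM1 held 0 to 2 reads per group.

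Markers of the line itself also moved with SP. Of 10 listed markers of A549, not all of them epithelial, 3 were called higher after 3 days of SP and 2 lower. After 12 days of SP 4 were higher and 2 lower. The epithelial genes KRT19 (2.18 and 2.55), EPCAM (1.36 and 2.45) and CDH1 (1.39 and 1.23) were higher. ALDH3A1, which the study uses as a cancer stem cell marker, was lower (−2.58 and −1.29). Of 12 immune, endothelial and fibroblast markers 7 were tested, and COL1A1 and LUM were called higher at both times. Of 12 glial markers 4 were tested in the first table and 1, SLC1A3, was called higher at 12 days (1.98, SE 0.31). Their part in the changes of the neuronal genes was not tested.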

How the data were processed

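RNA-seq counts per Ensembl gene were used as the authors deposited them: whole-number counts without normalization, in 2 tables of 9 libraries each. Per the labels and methods, libraries were made with the NEBNext Ultra kit from total RNA, sequenced as paired ends, aligned to GRCh38 with STAR 2.7.9a and counted with featureCounts. Strandedness and treatment of multi-mapping reads are not given in the sources used here. Symbols, exon lengths and GC content came from GENCODE release 44, and 61369 of 61541 identifiers matched. Gene starts came from RefSeq; CHGB, CPLX1, ELAVL3, MAPT, NCAM1, NEFH, NEFL, NEFM, NRXN2, RCOR2, SCG2, SNAP25, STMN2, STMN4 and SYT7 were not searched.

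The tables were fitted with edgeR 4.0.16 under R 4.3.3 (filterByExpr with a minimum count of 10, TMM, robust quasi-likelihood fit of all 9 libraries of a table, group term). Adjusted p-values are Benjamini-Hochberg values over 17775 and 17377 tested genes. DESeq2 1.42.0, other factors, filters, thresholds, blocks, a GC and length offset and leaving out each library were alternatives. The procedure was tested on simulated data. Members and lists were chosen with earlier results of these data known. Per-library values were written for REST, RCOR2, CPLX1, CPLX2 and, in each role group, for up to 4 called members with the largest change, or else for the member with the most reads. Further members were given values after these had been seen. Other neuronal genes and markers were named only if called, up to 4 a list and time, or as cell type markers. A few listed markers are not reported here.

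Libraries of the 24 h control and SP 24 h with the same number correlated in their deviations from group means (0.50, 0.17 and 0.50). No label states a pairing. The main calls and p-values come from a fit without one, and replicate number entered only as a block in alternative fits. Within the first table same-numbered libraries correlated at −0.01 to 0.16. Intervals of summed reads are 95% exact counting intervals. The depth limits members under the filter to ratios of reads.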

Additional observations from a re-analysis of the deposited data

Results flagged for a closer look

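NEFL and DCLK1 differed between SP 12 days and SP 3 days in a direct edgeR test, by 1.65 and 1.88 on the log2 scale (adjusted p = 4.79e-06 and 7.56e-05). DCLK1 was at −1.07 with every SP 24 h library below its control, and at 1.37 and 3.25 with every SP 3 days and SP 12 days library above theirs. SYP had every SP 3 h library above its control (0.26) and every SP 3 days and SP 12 days library below (−0.47 and −1.32). NRCAM had every SP 3 days library above (0.26) and every SP 12 days library below (−0.084) the same controls. The opposite directions of DCLK1, SYP and NRCAM between these comparisons were not tested, except that SP 12 days lay below SP 3 days for NRCAM by an adjusted p of 0.0106 in edgeR (log2 fold change −0.34), which was not a call.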

How the results depend on the processing

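The table of each comparison was refitted under the alternatives. At an adjusted p under 0.05 with a 2-fold change, 7 members were higher at 3 h, 19 higher and 2 lower at 24 h, 18 higher and 1 lower at 3 days, 19 higher and 2 lower at 12 days, and 10 differed between SP 24 h and SP 3 h. DESeq2 gave 5 higher at 3 h, 12 higher and 1 lower at 24 h, 15 higher and 1 lower at 3 days, 14 higher and 2 lower at 12 days and 7 between SP 24 h and SP 3 h. Of all genes it called 297 higher and 118 lower at 3 h and 997 and 195 at 24 h. It called 1396 and 378 at 3 days, 1415 and 485 at 12 days, and 555 and 101 between SP 24 h and SP 3 h. No expression filter gave 4 higher at 3 h, 12 at 24 h and 3 between SP 24 h and SP 3 h. The GC and length offset gave 1 higher at 3 h, 7 higher and 1 lower at 24 h, 12 higher and 1 lower at 3 days, 10 higher and 2 lower at 12 days, 3 between SP 24 h and SP 3 h and 1 between SP 12 days and SP 3 days. Of all tested genes 57 were then higher and 33 lower at 3 h and 297 and 152 at 24 h. At 3 days they were 878 and 570 and at 12 days 970 and 572. Between SP 24 h and SP 3 h they were 72 and 37, and between SP 12 days and SP 3 days 19 and 4. With the replicate block 0 were higher at 24 h, 11 higher and 1 lower at 3 days and 1 differed between SP 12 days and SP 3 days. Of all tested genes 2 were higher and 0 lower at 24 h and 1061 and 294 at 3 days. Between SP 12 days and SP 3 days they were 11 and 4. With block and offset 1 was higher at 3 h, 6 higher and 1 lower at 24 h, 12 higher and 1 lower at 3 days, and 1 and 1 differed between the times. Of all tested genes 24 were higher and 15 lower at 3 h, 234 and 137 at 24 h and 778 and 517 at 3 days. Between SP 24 h and SP 3 h they were 38 and 10, and between SP 12 days and SP 3 days 7 and 4. A fit of only the 2 groups gave 0 higher at 24 h, 1 lower at 3 days, 0 lower at 12 days and 0 between SP 12 days and SP 3 days; with the block, an alternative chosen after seeing the data, the values were 0, 1, 1 and 0. Leaving out each library gave 0 to 5 higher at 24 h, 9 to 18 higher and 0 to 1 lower at 3 days, 10 to 13 higher and 0 to 3 lower at 12 days, and 0 to 7 between SP 12 days and SP 3 days. At 12 days without library 3 of SP 12 days SYP and SNAP25 joined CPLX2. No called member reversed its direction. Where no count over all genes is given for a setting, the member counts show only how the calls moved. The cause of these shifts was not tested.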
